A study of Mus musculus with 8 samples.

Results

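Stroke-associated myeloid cells (SAMC) are the cells that the authors' deposited annotation places in the cluster of that name. They comprised 1044 of the 32457 annotated cells of 8 single-cell RNA-seq libraries, in which the annotation distinguishes 21 clusters. SAMC were taken by this annotation alone, through the cell barcode and the library named beside it, and no gene was used to choose them in the counts. The authors made the clusters from the same counts, so a difference between SAMC and another cluster describes the cluster and is no independent evidence for it.

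Myeloid cells that clear debris take up lipid and protein through surface receptors, break them down in acidic lysosomes with cathepsins and other hydrolases, and store or export the cholesterol that remains. Microglia are the resident macrophages of the brain parenchyma, whereas perivascular and meningeal macrophages line its borders and monocytes enter from blood after an infarct. Spp1 encodes the secreted protein osteopontin, Lpl a lipase of lipoprotein triglycerides, Gpnmb a transmembrane glycoprotein of lysosomes and the cell surface, and Fabp5 an intracellular fatty acid carrier.

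The mice were C57BL/6, either controls or after transient middle cerebral artery occlusion (MCAO), which blocks and then reopens the artery that supplies the striatum and lateral cortex. The study's methods give naive mice as the controls for sequencing, whereas a figure legend names sham-operated ones, and which holds is not settled here. Leukocytes were sorted as CD45+ cells that an intravenously injected CD45 antibody had not stained, which removes cells inside vessels, from brain parenchyma, pia mater or dura mater. Control brain, control pia, control dura, brain 72 h, pia 24 h and dura 24 h had 1 library each, and brain 24 h had 2. Labels of control pia disagree, since brain parenchyma stands in its title and pia mater in its tissue and source fields, and it was taken as pia. Animals were pooled, with a total stated for each compartment and not for each library, so p-values measure the spread between these libraries, which may be partly technical. Total UMIs (unique molecular identifiers, each counting 1 captured transcript) per library ranged from 6591898 to 20754181.

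SAMC were most numerous in the brain after MCAO. They made up 301 of 4582 annotated cells (6.57%, exact 95% interval 5.87 to 7.33) in brain 24 h replicate 1, 120 of 3468 (3.46%, 2.88 to 4.12) in replicate 2 and 485 of 6049 (8.02%, 7.35 to 8.73) in brain 72 h. Pia 24 h held 95 of 3922 (2.42%, 1.96 to 2.95). These 4 libraries passed the minimum of 30 SAMC and carried 1001 of the 1044 cells. The other 43 cells were 25 in control pia, 9 in dura 24 h, 8 in control dura and 1 in control brain. The intervals cover counting error only.

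The 4 main libraries fell into sets that cut across tissue and time. Brain 24 h replicate 2 and brain 72 h were deposited with a list of 31053 genes and the other 6 libraries with a list of 32285 genes. Replicate 2 and brain 72 h shared 8 cell barcodes with each other and between 0 and 2 with any other library, while every pair among the other 6 shared between 10 and 32. In SAMC, Granulo_1, Macro_2 and CAM_2 alike, 10 genes were over 4-fold higher in replicate 1 and pia than in replicate 2 and 72 h, and another 10 were over 4-fold lower. Atp6v0c, a subunit of the proton pump of lysosomes, stood at 1147 CPM (the share of the cluster's UMIs in that library, times 1000000) in SAMC of replicate 1, 16.4 in replicate 2, 1146 in pia and 30.0 at 72 h. The libraries were made with an earlier and a later version of the same kit chemistry. By the study's supplement the later one was used for brain 72 h and dura 24 h. This division differs from that of the gene lists and shared barcodes. Which kit each library had is not settled here. The split of the gene lists ran between the brain 24 h replicates, and values are given for each library. Comparisons of SAMC with another cluster were made within a library, where such a difference cancels.

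Depth also differed. Median UMIs per SAMC were 3165 in brain 24 h replicate 1, 1187 in replicate 2, 1964 in pia 24 h and 4612 in brain 72 h. For shares of cells with a transcript, each cell was therefore thinned at random to 1000 UMIs, which left 285, 74, 77 and 475 SAMC in these libraries and set aside 16, 46, 18 and 10 shallower ones. The mitochondrial share of SAMC also differed, with medians of 0.230% in replicate 1, 1.85% in replicate 2, 1.30% in pia and 1.58% at 72 h. Its part in the results was not tested.

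Of the 4 markers, Spp1 was the most abundant in SAMC of all 4 main libraries. It reached 106398 CPM (98336 UMIs, exact Poisson 95% interval 105734 to 107065) in brain 24 h replicate 1, 35312 CPM in replicate 2, 35227 CPM in pia 24 h and 16576 CPM in brain 72 h. Spp1 alone thus took 10.6% of all SAMC transcripts in replicate 1, 3.53% in replicate 2, 3.52% in pia and 1.66% at 72 h. The next highest of the compared clusters was Granulo_1 at 24 h, with 7426 CPM in replicate 1, 2429 CPM in replicate 2 and 3481 CPM in pia, and CAM_2 at 72 h, with 1778 CPM. SAMC were above Granulo_1, Macro_2 and CAM_2 in each library. Spp1 in CAM_1 and in the microglia clusters was not compared.

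The other markers were not high in SAMC of every main library. Lpl was high in SAMC of both brain 24 h libraries, at 2110 CPM in replicate 1 and 2619 CPM in replicate 2, and low in pia 24 h (151 CPM, 33 UMIs, interval 104 to 212) and brain 72 h (57.7 CPM, 48.3 to 68.4). Gpnmb was highest at 72 h and lowest in replicate 1, with 10.8 CPM (10 UMIs, 5.19 to 19.9) in replicate 1, 402 CPM in replicate 2, 142 CPM in pia and 2707 CPM at 72 h. Fabp5 followed Gpnmb, with 17.3 CPM (16 UMIs), 1096 CPM, 36.5 CPM (8 UMIs) and 7654 CPM in the same order of libraries. Lpl and the pair Gpnmb and Fabp5 therefore were highest in SAMC of different libraries. In pia, Lpl in SAMC was low but stayed above CAM_2 (77.0 CPM), Macro_2 (19.6) and Granulo_1 (6.58).

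In brain 24 h replicate 2 and in pia the low levels of Gpnmb and Fabp5 came from few cells. All 31 Gpnmb UMIs of pia SAMC lay in 1 of 95 cells. In replicate 2, 5 of 120 SAMC held the 98 Gpnmb UMIs, 37 of them in 1 cell. Of the 267 Fabp5 UMIs of replicate 2, 126 lay in 1 of the 9 cells that had any. At 72 h, by contrast, 414 of 485 SAMC had a Gpnmb UMI and 427 had a Fabp5 UMI.

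**Figure D1:**
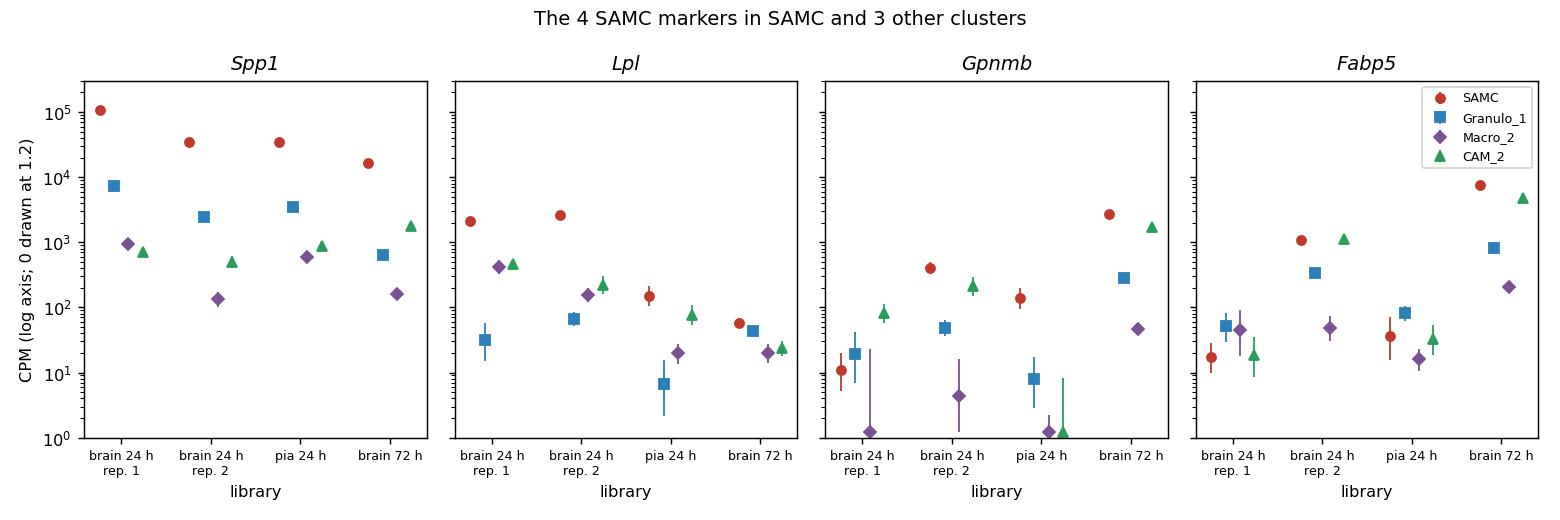
Levels of the 4 SAMC markers in CPM on a log axis in SAMC, Granulo_1, Macro_2 and CAM_2 of the 4 main libraries, with exact Poisson 95% intervals as bars (counting error only) and values of 0 drawn at the bottom. Spp1 is highest in SAMC throughout, whereas Fabp5 and Gpnmb reach their highest level at 72 h, in SAMC (7654 and 2707 CPM) and in CAM_2 (4708 and 1741 CPM).

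At an equal depth of 1000 UMIs, a Spp1 UMI was found in 100% of SAMC of each main library. The share of T cells (cluster Tc) was 30.8% (n = 26) in brain 24 h replicate 1, 15.2% (n = 99) in replicate 2, 4.97% (n = 161) in pia and 6.70% (n = 179) at 72 h. T cells can express Spp1 once activated, and the part of free RNA in these shares was not tested. Before thinning, median UMIs per Tc cell were 1207, 1935, 1052 and 1314. The number of Spp1 UMIs separated the clusters further. The median per thinned SAMC was 67 in replicate 1, 26 in replicate 2, 22 in pia and 13 at 72 h, and it was 0 or 1 in Granulo_1, Macro_2, CAM_2 and Tc of every library. At least 10 Spp1 UMIs were present in 95.8% of SAMC in replicate 1, 89.2% in replicate 2, 84.4% in pia and 67.4% at 72 h. These shares were 82.1%, 65.0%, 61.1% and 28.9% at 500 UMIs and 99.3%, 98.3%, 96.8% and 99.2% with no thinning, so this cut gives no fixed share of cells. At 1000 UMIs Granulo_1 had the next largest share at 24 h, with 14.1% in replicate 1, 4.28% in replicate 2 and 7.48% in pia.

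Lpl was detected in 69.5% of thinned SAMC (exact interval 63.8 to 74.8) in brain 24 h replicate 1, 70.3% (58.5 to 80.3) in replicate 2, 11.7% (5.49 to 21.0) in pia and 5.05% (3.26 to 7.42) at 72 h. Gpnmb was detected in 0.351%, 5.41%, 1.30% and 73.5% of them in that order, and Fabp5 in 0.351%, 9.46%, 2.60% and 82.9%. The intervals of the brain 24 h replicates overlapped for this share of Lpl, whereas those of its level in CPM did not (2017 to 2206 in replicate 1 and 2420 to 2830 in replicate 2), and brain 72 h stood apart for Gpnmb and Fabp5. With no thinning the shares with a Lpl UMI were 85.7%, 75.8%, 13.7% and 13.4%, so pia and brain 72 h then lay side by side.

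Exactly 1 of the 4 markers was detected in 29.8% of thinned SAMC of brain 24 h replicate 1, 25.7% of replicate 2, 87.0% of pia and 10.3% of brain 72 h. At 72 h 67.6% carried 3 markers and 2.11% all 4, against 10.8% with 3 markers in replicate 2, 2.60% in pia and none in replicate 1. The mean number was 1.70, 1.85, 1.16 and 2.61, and that of CAM_2 was 0.649, 0.609, 0.398 and 1.83. Brain 24 h replicate 2 and brain 72 h have the same, shorter gene list, but differ in time, depth and stated kit version, and the parts of these cannot be told apart. The shares depend on the depth chosen. At 500 UMIs exactly 1 marker was detected in 48.5% of SAMC of replicate 1 and 3 markers in 2.50% of replicate 2 and 46.8% at 72 h, and with no thinning these shares were 13.3%, 6.67% and 75.5%.

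**Figure D2:**
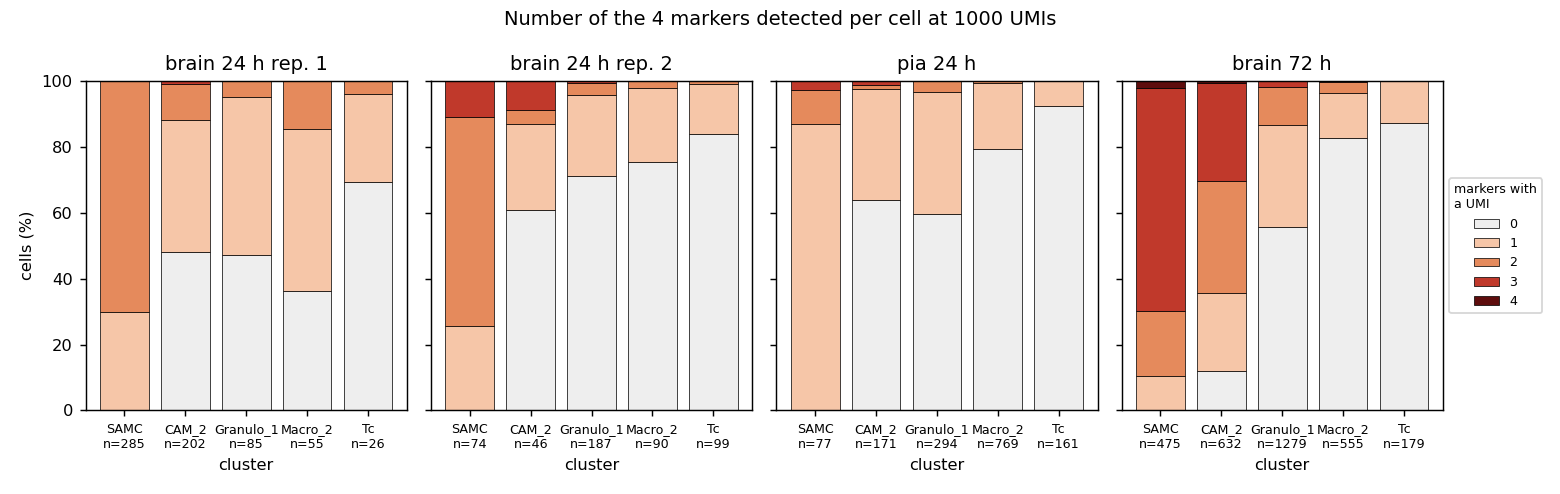
Share of cells (percent) with a given number of the 4 markers after thinning to 1000 UMIs, for SAMC, CAM_2, Granulo_1, Macro_2 and Tc of each main library. Most pia SAMC carry 1 marker (87.0%), most brain 24 h SAMC carry 2, and 67.6% of brain 72 h SAMC carry 3.

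The cells annotated as SAMC in the remaining libraries were less alike. In control pia, 5 of 25 cells had a Spp1 UMI (123 UMIs, 3108 CPM, 58 of them in 1 cell), and Lpl, Gpnmb and Fabp5 had no UMI, which allows up to 75.8 CPM each. In control dura 1 of 8 cells had a single Spp1 UMI, and 3 cells held 16 Lpl UMIs. In dura 24 h 8 of 9 cells had a Spp1 UMI, at 8177 CPM. The only control brain cell held 183 Spp1 and 17 Lpl UMIs. In control dura and in the library taken as control pia the label therefore goes against its leading marker in most of its few cells.

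The lineage genes of SAMC also differed between libraries. The 12 homeostatic microglia genes, which include P2ry12, Tmem119 and Fcrls, summed to 8554 CPM in SAMC of brain 24 h replicate 1, 6055 in replicate 2, 3169 in pia and 2529 at 72 h. The sum was highest in both brain 24 h libraries. The 10 border macrophage genes, which include Mrc1, Lyve1, Cd163 and Pf4, summed to 44.4 CPM in replicate 1, 398 in replicate 2, 5009 in pia and 1673 at 72 h. Mrc1, Lyve1 and Cd163 were at 0 in both brain 24 h libraries.

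Monocyte genes were highest at 72 h. The 10 genes summed to 366 CPM in brain 24 h replicate 1, 1794 in replicate 2, 13693 in pia and 18071 at 72 h. Most of it was Lyz2, lysozyme, with 315, 1433, 13479 and 16136 CPM. The 7 MHC class II genes, which present antigen to helper T cells, were highest in pia SAMC, with 12958 CPM against 840 in replicate 1, 259 in replicate 2 and 1023 at 72 h. Apoe, an apolipoprotein that carries cholesterol out of macrophages, stood at 268, 4799, 26053 and 52012 CPM. These sums were not tested between libraries, and T cells of the same libraries also carried UMIs of monocyte and MHC class II genes, as their shares of cells with a UMI show.

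Genes of other cell types were low. The 10 lymphoid genes summed to at most 20.8 CPM in SAMC of the main libraries, the 5 fibroblast genes to at most 13.7, the 7 neuronal genes to at most 90.3, the 7 oligodendrocyte genes to at most 164 and the 10 neutrophil genes to at most 191. The 5 erythroid genes were at 0 in brain 24 h replicate 1 and in pia, and summed to 452 CPM in replicate 2 (most of it Hbb-bs, 279 CPM) and 172 CPM at 72 h. Their part in the results was not tested.

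**Figure D3:**
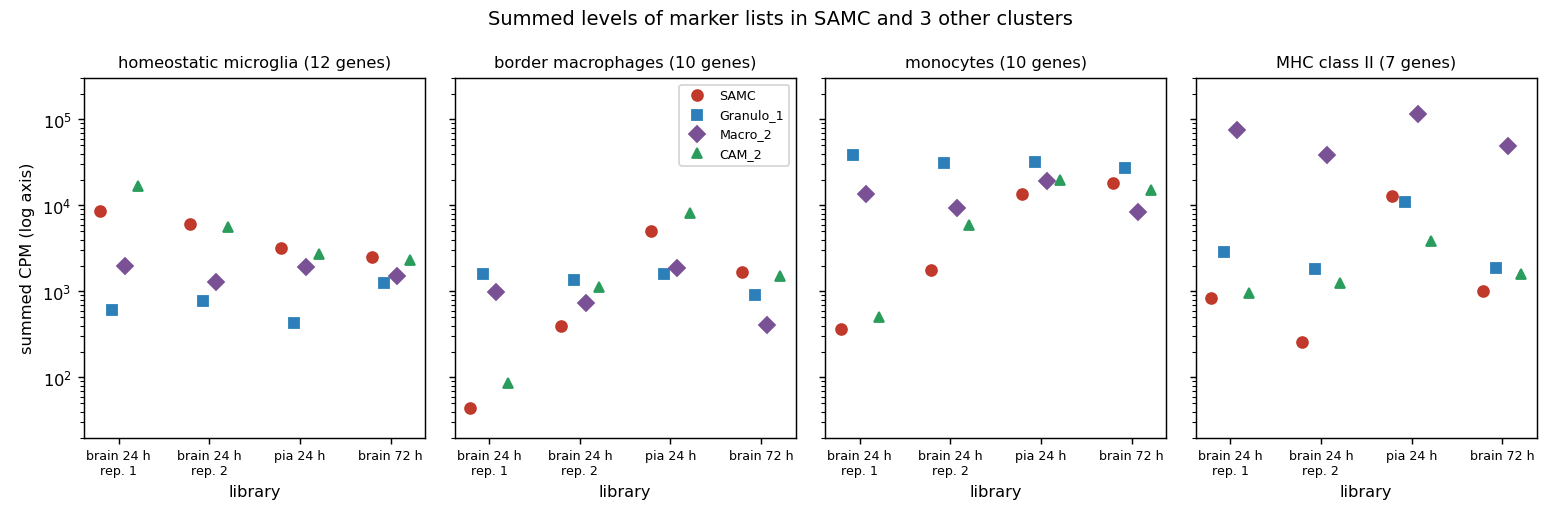
Summed level (CPM, log axis) of 4 marker lists in SAMC, Granulo_1, Macro_2 and CAM_2 of the main libraries. SAMC and CAM_2 move together between libraries except for MHC class II genes, Granulo_1 leads in monocyte genes and Macro_2 in MHC class II genes.

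At an equal depth of 1000 UMIs, 81.8% of pia SAMC (63 of 77) had a UMI of at least 1 border macrophage gene, against 16.1% of pia Tc cells. The share in SAMC was 3.51% in brain 24 h replicate 1, 25.7% in replicate 2 and 68.8% at 72 h, and that in Tc was 3.85%, 12.1% and 14.5%. In replicate 1 the share in SAMC was thus no higher than in T cells. Homeostatic microglia genes were detected in 87.0% of pia SAMC, but also in 55.3% of pia Tc cells. T cells themselves express some genes of these lists, such as Selplg of the microglia list and Itgal of the monocyte list, and how much of their shares is free RNA was not tested. Border macrophage and microglia genes were detected together in 68.8% of pia SAMC, 73.1% of pia CAM_2 and 7.45% of pia Tc cells. MHC class II genes were detected in 87.0% of pia SAMC and 73.3% of pia Tc cells, against 45.3% and 42.3% in replicate 1, 17.6% and 8.08% in replicate 2 and 37.5% and 15.6% at 72 h. Monocyte genes were detected in 24.9% of SAMC and 46.2% of Tc cells in replicate 1, 25.7% and 69.7% in replicate 2, 87.0% and 67.7% in pia and 98.5% and 77.1% at 72 h. In both brain 24 h libraries the share of SAMC with a monocyte gene was thus below that of T cells, and it is read neither as expression nor as its absence.

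Across genes, SAMC profiles were nearest to one of the clusters named CAM (for CNS-associated macrophages) of their own library. Pearson's r of log2(CPM + 10) over genes with at least 100 CPM in any cluster was highest with CAM_1 in brain 24 h replicate 1 (0.956), replicate 2 (0.937) and pia (0.945), and with CAM_2 at 72 h (0.990). In replicate 2 the microglia cluster Micro_3 came next (0.895), ahead of CAM_2 (0.885). The profile of SAMC in replicate 1 had r = 0.597 with that of SAMC in replicate 2, 0.820 with that in pia and 0.578 with that at 72 h (2437 genes). It was 0.711 between replicate 2 and 72 h, so the brain 24 h replicates were less alike than either pair of libraries with the same gene list. These values describe profiles whose genes share library and depth, and genes are not replicates.

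For each of Granulo_1, Macro_2 and CAM_2, UMIs were summed per library and cluster and compared with SAMC of the same library by edgeR's quasi-likelihood test with library as a block. A gene is called where the Benjamini-Hochberg adjusted p was under 0.05 and the fold at least 2. Against Granulo_1, 566 of 6814 genes tested were called (8.31%), 269 higher (3.95%) and 297 lower (4.36%). Against Macro_2 it was 415 of 6223 (6.67%), 174 higher (2.80%) and 241 lower (3.87%). Against CAM_2 only 35 of 5448 were called (0.642%), 27 higher (0.496%) and 8 lower (0.147%). With libraries scaled by size alone the split against Macro_2 turned to 210 higher and 170 lower, and that against CAM_2 to 21 and 11. This scaling moved the median log2 fold change of all genes from 0.03 to 0.13 against Macro_2 and from -0.01 to -0.11 against CAM_2. Without brain 72 h the counts were 870 against Granulo_1, 195 against Macro_2 and 127 against CAM_2. They were 301, 327 and 10 without brain 24 h replicate 1, 177, 254 and 17 without replicate 2, and 316, 510 and 30 without pia. Since the clusters were made from these counts, the calls show how alike the libraries were.

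Of the 10 monocyte genes 8 were called lower in SAMC than in Granulo_1, with a median log2 fold change of -4.73 against 0.00 over all genes tested. Plac8, a monocyte gene, stood at 1.08, 0, 9.13 and 18.7 CPM in SAMC of brain 24 h replicate 1, replicate 2, pia and brain 72 h, against 1406, 1445, 822 and 1588 in Granulo_1. Pi16 and Adgre4, a peptidase inhibitor and an adhesion G protein-coupled receptor, had no UMI in SAMC of any main library. Set against the 3 UMIs that a count of 0 allows in each library, Pi16 was at least 3.27-fold and Adgre4 at least 2.21-fold lower in SAMC in the library with the weakest bound. Other monocyte genes kept a level at 72 h, where Fn1, fibronectin, stood at 855 CPM in SAMC against 1785 in Granulo_1 and Chil3, a chitinase-like protein, at 559 against 2480. Chil3 was not called (-6.32 ± 1.49, edgeR adjusted p = 0.0638). Neither was Lyz2 (-2.68 ± 1.34), with 16136 CPM in SAMC against 17853 in Granulo_1 at 72 h. Ifitm6 was also among the 5 lowest, at 0, 0, 22.8 and 1.30 CPM in SAMC and 293 to 434 CPM in Granulo_1.

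The highest genes against Granulo_1 were Mmp12, Ch25h, Fcrls, Gas6 and Pmp22. Mmp12, the macrophage elastase, stood at 1151, 218, 100 and 13 CPM in SAMC of brain 24 h replicate 1, replicate 2, pia and brain 72 h, and between 0 and 9.56 CPM in Granulo_1. Ch25h, which makes 25-hydroxycholesterol, stood at 128, 65.7, 63.9 and 12.6 CPM in SAMC and at most 2.63 CPM in Granulo_1. Both were lowest in SAMC of brain 72 h and stayed above Granulo_1 in every library. Spp1 was higher by 3.92 ± 0.39 on the log2 scale (SE, edgeR adjusted p = 0.000204), and Lpl missed the call (4.17 ± 1.15, edgeR adjusted p = 0.0936) with 57.7 CPM in SAMC against 44.0 in Granulo_1 at 72 h. Gpnmb was called (2.78 ± 0.69) but was lower in SAMC of replicate 1, at 10.8 against 19.1 CPM, and its call was lost under 7 of 12 other settings. Of the microglia genes 7 of 11 tested were higher, among them Fcrls (5.56 ± 0.53) and Tmem119 (1.43 ± 0.29).

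Genes of antigen presentation were lower in SAMC than in Macro_2. Of the 6 MHC class II genes tested 4 were lower in SAMC (H2-Ab1, whose call was lost under 5 of 12 other settings, Cd74, H2-DMa and H2-DMb1), and the median log2 fold change was -6.06 against 0.03 over all genes. Cd74, the invariant chain of MHC class II, stood at 604, 148, 10013 and 468 CPM in SAMC of brain 24 h replicate 1, replicate 2, pia and brain 72 h, and at 52495, 16889, 83475 and 18057 CPM in Macro_2. The highest SAMC value lay below the lowest of Macro_2. The dendritic cell genes Flt3, a growth factor receptor, and Cd209a, a C-type lectin, were among the 5 lowest genes. Flt3 had no UMI in SAMC and 26.2 to 54.8 CPM in Macro_2, at least 1.91-fold lower in the library with the weakest bound. Retnla, a gene of alternatively activated macrophages, had 2.16 CPM in SAMC of replicate 1 and no UMI in the others, against 796, 86.0, 50.5 and 20.4 CPM in Macro_2.

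The highest genes against Macro_2 were Spp1 (6.75 ± 0.57), Gpnmb (6.28 ± 0.49), Rnf128 (3.76 ± 0.42), Igf1 (3.52 ± 0.48) and Ctsl (3.49 ± 0.39), each as a log2 fold change with its SE. Gpnmb had 0 UMIs in Macro_2 of brain 24 h replicate 1 and of pia, so its fitted fold and rank are not exact. In replicate 1 its level in SAMC, 10.8 CPM, lay below the 18.9 CPM that 3 UMIs would give in Macro_2. Lpl was also called (2.64 ± 0.37), so 3 of the 4 markers were higher, and Fabp5 was not (3.00 ± 1.54, edgeR adjusted p = 0.389). In replicate 1 Fabp5 was lower in SAMC than in Macro_2, at 17.3 against 44.2 CPM. Genes called lower included 4 of 20 cytokine and chemokine genes tested, namely Il1b, Ccl5, Cxcl2 and the regulator Nfkbiz, beside 3.87% of all genes tested. The median log2 fold change of this list was 0.02 against 0.03 over all genes.

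Over the 4 libraries CAM_2 differed from SAMC in the fewest genes of these 3 clusters, and secreted signals were among them. The order turned within the libraries with the longer gene list, where 196 of 5116 genes were called against CAM_2 and 184 of 5433 against Macro_2, while those with the shorter list gave 5 against CAM_2. Of 17 cytokine and chemokine genes tested 5 were higher in SAMC (Il1rn, Tnf, Ccl3, Ccl4 and Cxcl10), beside 0.496% of all genes tested, and none was lower. The median log2 fold change of this list was 0.84 against -0.01 over all genes. Ccl4, a chemokine for monocytes and T cells, stood at 8647, 9635, 763 and 497 CPM in SAMC of brain 24 h replicate 1, replicate 2, pia and brain 72 h, against 2328, 2225, 275 and 273 CPM in CAM_2. Csf1, the growth factor on which macrophages and microglia depend, stood at 875, 1268, 63.9 and 19.1 CPM against 220, 253, 35.2 and 4.51 CPM. Both were higher in SAMC in every library, although their level in SAMC was far lower in pia and at 72 h than in the brain 24 h libraries. Ch25h, Chst11 (a chondroitin sulfotransferase) and Cd72 (an inhibitory receptor) completed the 5 highest genes that kept their direction, and the call of Chst11 was lost under 4 of 9 other settings. Cd72 stood at 1431, 554, 260 and 29.9 CPM in SAMC and 385, 147, 125 and 11.1 CPM in CAM_2.

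Spp1 exceeded CAM_2 in all 4 libraries but was not called (5.59 ± 1.01, edgeR adjusted p = 0.298). Its ratio of SAMC to CAM_2 was 149 in brain 24 h replicate 1, 70.2 in replicate 2, 40.4 in pia and 9.32 at 72 h. Of the other markers Lpl had 2.18 ± 0.45 (edgeR adjusted p = 0.173), and Gpnmb and Fabp5 had 0.66 ± 1.11 and 0.35 ± 0.21, so none of the 4 was called. Under 12 other settings, of which leaving out pia and taking brain libraries only are the same fit, Spp1 was called in 5 and Lpl in 9. The few lower genes included Gbp7, an interferon-induced GTPase, Lifr, the receptor of leukaemia inhibitory factor, Hpgd, which degrades prostaglandins, and Serinc3. The call was lost for Gbp7 under 6 of 9 other settings, for Lifr under 7 of 11, for Hpgd under 8 of 12 and for Serinc3 under 3 of 12. Serinc3 stood at 153, 213, 251 and 138 CPM in SAMC against 576, 577, 521 and 221 CPM in CAM_2. Ighm, an immunoglobulin heavy chain gene of B cells, was also lower, at 48.7, 78.0, 18.3 and 9.55 CPM against 135, 159, 125 and 44.7 CPM. Its call was lost under 3 of 12 other settings.

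Of 5292 genes tested in all 3 comparisons 7 were called higher in SAMC each time (Ctsl, Cd36, Cd9, Igf1, Myo1e, Plk2 and Rnf128) and none lower. Ctsl, the lysosomal protease cathepsin L, stood at 3749 CPM in SAMC of brain 24 h replicate 1, 4811 in replicate 2, 1461 in pia and 1414 at 72 h. In CAM_2 it stood at 2010, 1383, 548 and 768 CPM, and no value of Granulo_1 or Macro_2 exceeded 520 CPM. Its log2 fold change was 2.60 ± 0.44 against Granulo_1, 3.49 ± 0.39 against Macro_2 and 1.34 ± 0.18 against CAM_2.

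Cd36, a scavenger receptor for oxidised lipoproteins and fatty acids, was highest in pia SAMC. It stood at 36.8, 57.5, 224 and 57.7 CPM in SAMC of brain 24 h replicate 1, replicate 2, pia and 72 h, against 10.4, 41.2, 90.2 and 25.0 CPM in CAM_2. Igf1, insulin-like growth factor 1, was low but even, at 51.9, 24.6, 63.9 and 49.0 CPM in SAMC. The tetraspanin Cd9 stood at 4725, 1851, 1210 and 593 CPM in SAMC, above each compared cluster of the same library. Myo1e, a myosin, Plk2, a stress-responsive kinase, and Rnf128, a ubiquitin ligase, had log2 fold changes of 1.23 ± 0.22, 1.21 ± 0.23 and 1.18 ± 0.23 against CAM_2. The call of Cd36 against Macro_2 (1.19 ± 0.33) was lost under 9 of 12 other settings and that of Igf1 against CAM_2 (1.30 ± 0.30) under 8 of 11. Calls of Cd9 against Granulo_1 and of Plk2 against CAM_2 were each lost under 5 of 12, and those of Myo1e and Rnf128 against CAM_2 under 4 of 12 and 4 of 11.

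**Figure D4:**
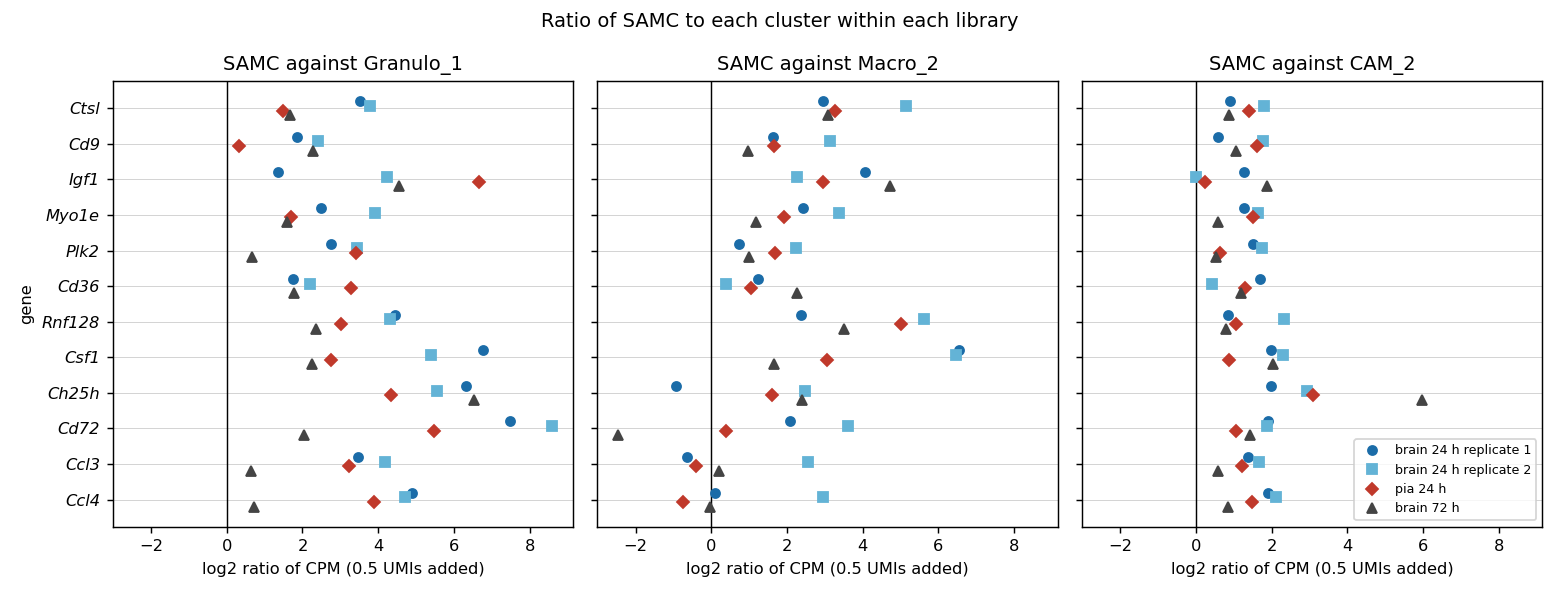
Ratio of SAMC to Granulo_1, Macro_2 and CAM_2 within each main library (log2 CPM ratio, 0.5 UMIs added) for the 7 genes called higher in all 3 comparisons and for Csf1, Ch25h, Cd72, Ccl3 and Ccl4. The points of the 7 genes lie above 0 in every library except for Igf1 against CAM_2 in brain 24 h replicate 2, which lies at 0, and those of Ccl3 and Ccl4 lie on both sides of 0 against Macro_2 alone.

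Lysosomal genes were called higher against Granulo_1 and Macro_2, and Ctsl alone of these lists was called against CAM_2. Over all genes tested 3.95% were higher against Granulo_1, 2.80% against Macro_2 and 0.496% against CAM_2. Of 11 cathepsin and cystatin genes tested, 4 were higher against Granulo_1 (Ctsb, Ctsd, Ctsl and Cst7, median 1.07) and 4 against Macro_2 (Ctsa, Ctsb, Ctsd and Ctsl, median 0.65). The calls of Ctsd and Ctsb against Granulo_1 were lost under 5 and 4 of 12 other settings. Ctsb, the most abundant, stood at 18473, 7496, 9004 and 12623 CPM in SAMC of brain 24 h replicate 1, replicate 2, pia and 72 h, against 3649, 1452, 4100 and 3501 CPM in Granulo_1. Of 19 lysosomal hydrolases and membrane proteins 7 were higher against Granulo_1 (median 0.88), 9 against Macro_2 (median 1.06) and 0 against CAM_2 (median -0.02). Cd63, a tetraspanin of late endosomes, was among those called (3.41 ± 0.33 against Granulo_1 and 2.79 ± 0.48 against Macro_2), as was Cd68 (1.15 ± 0.29 and 1.29 ± 0.29). Gpnmb stands in this list and also in that of the markers.

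Among 97 genes called higher against both Granulo_1 and Macro_2, promoter sequences were at hand for 83. The letters CACGTG, the E-box core that lysosomal regulators of the TFEB family can bind, occurred on either strand in 18 of these 83 promoters (21.7%), taken as 250 bases before to 50 bases after the start. They occurred in 13.9% of 4975 tested genes with a promoter, in 8.09% of all 27025 genes in the table and in 7 of 84 genes called lower (8.33%). TGANTCA, an AP-1 type sequence, occurred in 17 of 83 (20.5%), against 6.37% of the tested genes, 8.97% of all and 11 of 84 lower genes (13.1%). A match is a description of the letters and not of binding. For the marker Gpnmb and for Ctsl the matches lay in these 30-base windows of RefSeq sequence on GRCm38.p6, written 5′ to 3′ on the gene's strand with the match in capitals.
Gpnmb: gccaggggcaagTGACTCAtgagcacgagt
Ctsl: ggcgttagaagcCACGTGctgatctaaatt
The Gpnmb window is chr6:49036514-49036543 on the plus strand and spans the annotated start of the gene, which runs from 49036518 to 49058182. The Ctsl window is chr13:64370739-64370768 on the minus strand, with its match 236 bases before the start used for the table, and lies inside the longest extent that RefSeq gives the gene, from 64361890 to 64370772. Spp1 lies at chr5:104435111-104441053, Lpl at chr8:68880555-68906932 and Fabp5 at chr3:10012585-10016610 on the same build.

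Lipid genes were called higher mainly against Macro_2, where 2.80% of all genes tested were, beside 3.95% against Granulo_1 and 0.496% against CAM_2. Of the lipid uptake and binding genes 2 of 10 were higher against Granulo_1 (Cd36 and Trem2, a lipid-sensing receptor), 5 of 9 against Macro_2 (Lpl, Cd36, Msr1, Lrp1 and Trem2) and 1 of 8 against CAM_2 (Cd36). Trem2 stood at 647, 632, 507 and 1229 CPM in SAMC of brain 24 h replicate 1, replicate 2, pia and 72 h, and was above Granulo_1 and Macro_2 in each library. Of the storage and efflux genes, Lipa and Abca1 were higher against Granulo_1 (2 of 15) and Plin2, Npc1, Abca1 and Abcg1 against Macro_2 (4 of 13). Abca1, a cholesterol exporter, had 48.7, 903, 63.9 and 374 CPM in SAMC. It was higher in replicate 2 and at 72 h than in replicate 1 and pia, and the cause was not tested.

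Complement C1q genes were higher in SAMC than in Granulo_1, where C1qa, C1qb, C1qc and C3ar1 made 4 of 14 genes called higher. C3, the central complement component, was lower (-4.16 ± 0.75). C1qa stood at 2930, 3896, 4991 and 3083 CPM in SAMC and 185, 192, 358 and 390 CPM in Granulo_1. In CAM_2 it stood at 4927, 4391, 6052 and 2676 CPM, a higher level than in SAMC in each 24 h library, and none of 13 genes of this list was called against CAM_2. Against Macro_2, 4 of 14 were higher (C1qa, C1qc, C3ar1 and C5ar1). Of 19 genes of the disease-associated microglia state 9 were higher and 1 lower against Granulo_1 (median 1.68), 8 higher and 3 lower against Macro_2 (median 1.34) and 2 higher against CAM_2 (median 0.37 over 18). This list holds the 4 markers and other genes that the study names for SAMC, so its counts are not independent of them. Outside those genes, Cst7 and Trem2 alone were called higher against Granulo_1, Trem2 alone against Macro_2 and none against CAM_2. Of 19 glycolysis and hypoxia genes tested against Granulo_1 none was higher and 2 were lower (Pfkp and Hif1a), of 18 against Macro_2 1 was higher (Pkm, pyruvate kinase) and none lower, and of 17 against CAM_2 none was called. Over all genes 3.95% were higher and 4.36% lower against Granulo_1, 2.80% and 3.87% against Macro_2, and 0.496% and 0.147% against CAM_2. Of the 20 genes that the study names for SAMC, which were chosen on these libraries, 10 were higher against Granulo_1, 11 against Macro_2 and 5 against CAM_2.

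Pia and brain SAMC at 24 h were compared between 1 pia and 2 brain libraries, which leaves 1 residual degree of freedom, so pia and the pia library cannot be told apart. Of 4943 genes tested 26 were called (0.526%), 25 higher in pia (0.506%) and 1 lower (0.0202%), an unnamed transcript. DESeq2 called 26 higher and 7 lower, and scaling by library size alone 27 and 3. The higher genes were mainly those of border macrophages and of antigen presentation. The 5 highest were Gpx3, Mrc1, Ccl8, Cd163 and Vcam1. Each had 0 UMIs in SAMC of both brain 24 h libraries.

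Gpx3, a secreted glutathione peroxidase, stood at 470 CPM in pia SAMC, at least 38.2-fold above the 3 UMIs that a count of 0 allows in the brain library with the weaker bound. By the same measure Mrc1, the mannose receptor, at 379 CPM was at least 30.8-fold higher, the chemokine Ccl8 at 219 CPM at least 17.8-fold, the haemoglobin scavenger receptor Cd163 at 183 CPM at least 14.8-fold and the adhesion molecule Vcam1 at 155 CPM at least 12.6-fold. Brain 72 h SAMC had 42.5 CPM of Gpx3, 13.5 of Mrc1, 5.21 of Ccl8, 0 of Cd163 and 2.60 of Vcam1. These genes were thus far lower in the brain at 72 h than in pia at 24 h.

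Of the 10 border macrophage genes 8 were higher (Pf4, Mrc1, Lyve1, Cd163, F13a1, Cbr2, Folr2 and Clec4n). The median log2 fold change was 5.26, with the 3 genes at 0 in both brain libraries set to their bound, against -0.20 over all genes tested. Pf4, platelet factor 4, stood at 1772 CPM in pia against 9.74 in brain replicate 1 and 49.3 in replicate 2. Of 6 MHC class II genes 3 were higher (H2-Aa, H2-Ab1 and H2-Eb1), with pia T cells also often carrying such transcripts (73.3% at 1000 UMIs), and Cd74 missed the call (4.70 ± 1.43, edgeR adjusted p = 0.137). H2-Ab1 stood at 1201 CPM in pia SAMC against 35.7 in replicate 1 and 12.3 in replicate 2. No microglia gene was called, and their median was -1.45.

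The same genes were higher in pia in another cluster. In CAM_2 all 25 were at least 2-fold higher in pia than in brain replicate 1 and 23 of 25 than in replicate 2, where 8.42% and 16.5% of the genes tested were. In Granulo_1 it was 14 and 17 of 25, beside 10.2% and 16.9% of the genes tested, and in Macro_2 11 and 16, beside 7.75% and 14.9%. In SAMC, whose contrast chose them, all 25 exceeded 2-fold over both libraries. Ccl8, for example, stood at 458 CPM in pia CAM_2 and at 0 in CAM_2 of both brain 24 h libraries.

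MHC class II genes showed a wider gap between pia and brain in SAMC than in CAM_2. Their sum in pia was 12958 CPM in SAMC and 3854 in CAM_2, while in replicate 1 it was 840 and 967 and in replicate 2 259 and 1248. H2-Eb1 stood at 475 CPM in pia SAMC and 4.33 and 4.11 in the brain libraries, but at 119 CPM in pia CAM_2 against 0 and 147. Cxcl1, a neutrophil chemokine, stood at 251 CPM in pia SAMC against 8.66 and 0 in the brain, and at 24.2 against 2.08 and 0 in CAM_2. The difference between clusters was tested as follows.

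A fit with all 4 clusters asked whether the pia difference of SAMC went beyond that of Granulo_1, Macro_2 and CAM_2, in which effects common to a library cancel. No gene of 8069 was called (0.00%) by edgeR, and 308 had an unadjusted p under 0.05. DESeq2 called 4. The smallest edgeR adjusted p, 0.119, was shared by Cxcl1 (4.04 ± 0.81), Il1b (3.98 ± 0.75), Trem1 (3.81 ± 0.82), Tmem176a (2.44 ± 0.52) and Tmem176b (2.49 ± 0.54), each as a log2 difference with its SE. Il1b, the cytokine interleukin-1 beta, stood at 521 CPM in pia SAMC against 23.8 and 28.7 in the brain libraries and 19.5 at 72 h. In Macro_2 it stood at 1425 CPM in pia against 1061 and 628.

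**Figure D5:**
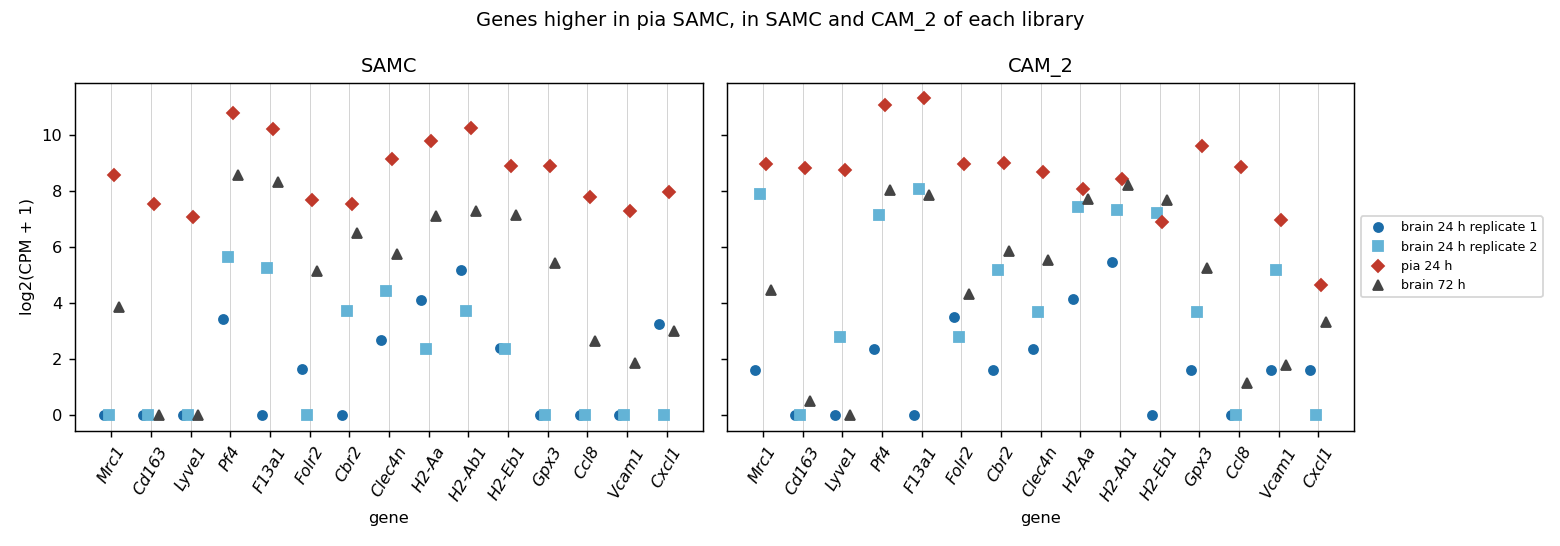
Levels, as log2(CPM + 1), of 15 genes called higher in pia SAMC, shown in SAMC and in CAM_2 of the 4 main libraries. Pia points lie highest for every gene in SAMC and for all but H2-Eb1 in CAM_2.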

How the data were processed

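The authors made the deposited UMI counts per gene and barcode with Cell Ranger 6.0 on mm10, per the labels and the submitters' processing notes, without normalization. Their annotation gives the cluster of each barcode they kept after filters on genes, mitochondrial share and doublets. The UMAP coordinates the authors deposited beside it are scores and were not used. No per-sample column of another series was found. The annotation lists 32457 of the 36854 barcodes in the files. The study's results count as many cells and its methods a larger number after the filters, and the reason is not known.

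The members, gene lists and naming rule were chosen with earlier results of these data known. Genes were matched over 30406 identifiers shared by both gene lists. UMIs were summed per library and cluster and tested with edgeR 4.0.16 in R 4.3.3 (its default filter on low counts, TMM scaling and the robust quasi-likelihood fit, two-sided, library as a block within libraries). DESeq2 1.42.0, scaling by library size alone, no filter, no block, thinned counts, brain libraries only and each library left out were alternatives. The comparisons within sets of libraries with the same gene list and of pia with each brain library alone were added after seeing the data. Named genes are the 4 markers, the 5 highest and 5 lowest called genes that moved the same way in every library of a comparison, genes called in all 3 comparisons, the 5 highest in pia, list members by level or call, and 20 genes the study names. Mitochondrial, ribosomal and unnamed genes were counted and not named, and a few genes that the rule names are not reported here. Promoters are those of RefSeq on GRCm38.p6. The steps were tested on simulated counts. Other steps ran in Python 3.11.15 (matplotlib 3.10.9, pandas 2.3.3, scipy 1.17.1, numpy 2.4.6; seed 20220217). Exact Poisson and Clopper-Pearson 95% intervals cover counting error only, and 3 UMIs were taken as the most that a count of 0 allows.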

Additional observations from a re-analysis of the deposited data

Results flagged for a closer look

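Barcodes to which the annotation gives no cluster carried Spp1 after MCAO at a level above the controls. The level was 11606 CPM in 378 such barcodes of brain 24 h replicate 1, 799 CPM in 880 of replicate 2, 403 CPM in 538 of dura 24 h, 1772 CPM in 400 of pia 24 h and 2322 CPM in 1347 of brain 72 h. In the controls it was 4.31 CPM in brain, 28.5 CPM in dura and 119 CPM in pia. These barcodes are those the authors left out, so SAMC among them are not in the counts of cells, and how many there are was not tested.

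For some genes that the study names for SAMC, the log2 ratio of SAMC to another cluster had one sign in both brain 24 h libraries and the other in pia 24 h or brain 72 h. None of these differences from a single cluster was tested between libraries. In the fit of the pia difference beyond the other clusters, 0 of the 20 genes the study names were called. Against Granulo_1 the ratio at 72 h was -0.10 for Adam8, -1.20 for Cd14, 0.26 for Lgals3 and -1.19 for Lilrb4a, and the ratio in pia was -0.22 for Lilrb4a and -0.38 for Plin2. Against Macro_2 the ratio at 72 h was 2.87 for Apoe, 1.40 for Lyz2, -0.92 for Lilrb4a and -0.40 for Mmp12. Against CAM_2 the ratio at 72 h was 0.024 for Apoe, -0.32 for Cd14, 0.70 for Fabp5, 0.11 for Fth1, 0.31 for Lgals3, -0.27 for Lilrb4a and 0.35 for Lyz2, and in pia it was 0.15 for Fabp5 and 0.25 for Fth1.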

How the results depend on the processing

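With no filter on low counts, 1108 genes were called against Granulo_1, 808 against Macro_2, 83 against CAM_2 and 26 for the pia difference beyond the other clusters. With cells thinned to 1000 UMIs it was 208, 109 and 24 for the clusters, 9 for pia against brain and 3 beyond the other clusters. With no library block, which is the pairing of sums from the same library, 75, 2 and 0 genes were called against Granulo_1, Macro_2 and CAM_2. At 0 calls against CAM_2, 45 genes had an unadjusted edgeR p under 0.05. Leaving out each library in turn gave 177 to 870 genes against Granulo_1, 195 to 510 against Macro_2 and 10 to 127 against CAM_2. It gave 4 genes beyond the other clusters without brain 24 h replicate 1 and 0 without replicate 2. Brain libraries only gave 316 genes against Granulo_1. The libraries with the longer gene list gave 360, 184 and 196, and those with the shorter list gave 5 against CAM_2. For the pia difference beyond the other clusters DESeq2 called 4 genes and scaling by library size alone 5. No named gene that the main fit called was reversed in direction, and direction was not compared for genes it did not call. Among named genes, 298 values against CAM_2, 344 against Granulo_1 and 288 against Macro_2 kept their side of the threshold under these alternatives. So did 22 of pia against brain. In that order, 68, 39, 39 and 1 lost a call and 19, 4, 9 and 0 gained one. Pia against each brain library alone leaves no residual degrees of freedom and gave ratios with no test. Of 32 shares of SAMC with a marker UMI at 500 UMIs or with no thinning, 9 lay outside the exact interval at 1000 UMIs, all of Lpl, Gpnmb or Fabp5. The causes were not tested. SAMC of brain 24 h replicate 2 had the lowest depth, and pia has 1 library, which limits what either shows.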
